A study of Mus musculus with 10 samples.

Results

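The mitotic genes described here are 55 genes of cell division, chosen by symbol from the 50559 genes in the count files of 10 mouse libraries. They encode kinases, phosphatases and cyclins of mitotic entry (8 genes), the chromosomal passenger complex (4), the spindle checkpoint (5), mitotic exit (4), the kinetochore (9), spindle motors and spindle proteins (8), cytokinesis (8), chromosome structure (7) and transcription factors of mitotic genes (2). All 55 passed the filter on low counts and were tested among 29952 genes. RNA of 4 MYC/SMARCA4 tumors, 3 P7 cerebella and 3 SHH medulloblastomas (SHH MB) had been sequenced, all from formalin-fixed, paraffin-embedded tissue. For the tumors, granule cell precursors (GCPs) of tamoxifen-treated Math1-creERT2::Smarca4fl/fl pups were given MYC and GFP with a lentivirus under the CMV promoter and were transplanted without sorting into cerebella of immunodeficient CD1nu/nu mice. Biopsy punches of the tumors took all cells in their area, and the labelled ages of tumors 1 to 4 are 112, 96, 89 and 79 days. The P7 cerebella were whole organs of Math1-creERT2::Smarca4fl/fl mice aged 7 days that had received 0.4 mg tamoxifen on day 3, so that the controls carry the Smarca4 deletion in part of their GCPs as well. The SHH MB had the genotype Math1-cre::Smofl/wt, and their label also gives an age of 7 days. Math1 directs Cre to the granule cell lineage and to some other cells that arise from the rhombic lip. Nothing in the labels says whether libraries of a group came from separate litters or transplantations, and p-values therefore measure the spread between these samples.

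A cell enters mitosis when CDK1 with cyclin B phosphorylates its targets, condenses its chromosomes and builds a bipolar spindle. Kinetochores on the centromeres capture spindle microtubules, and the spindle checkpoint restrains the anaphase-promoting complex until all chromosomes are attached. Separase then cuts cohesin, the sister chromatids part, and the cell divides by a contractile ring. Transcripts of most of these genes peak in G2 and mitosis and are low in cells that left the cycle, which is why Mki67 and Top2a serve as markers of proliferation in medulloblastoma. In the cerebellum shortly after birth, GCPs of the external granule layer are the main dividing cells.

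Periodic transcription of many of these genes runs through the cell cycle homology region (letters TTTGAA), which is bound by the DREAM complex in resting cells and by the MuvB core with MYBL2 and FOXM1 in dividing cells. CCAAT boxes, which NF-Y binds, often lie next to it. RefSeq promoters of GRCm38.p6, reaching from 250 bases before to 50 bases after a start, were at hand for 46 of the 55 genes. The 150 bases before the start are shown for 4 genes whose levels are given for every library below and whose promoters hold TTTGAA before the start. They read 5′ to 3′ in the direction of the gene, and capitals mark TTTGAA and CCAAT on either strand.
Mki67: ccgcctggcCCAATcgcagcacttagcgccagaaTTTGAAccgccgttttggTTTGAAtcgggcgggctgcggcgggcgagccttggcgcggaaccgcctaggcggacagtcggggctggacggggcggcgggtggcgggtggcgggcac
Top2a: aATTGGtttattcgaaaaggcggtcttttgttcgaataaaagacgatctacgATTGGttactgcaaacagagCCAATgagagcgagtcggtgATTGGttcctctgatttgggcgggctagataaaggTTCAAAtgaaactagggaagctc
Cdk1: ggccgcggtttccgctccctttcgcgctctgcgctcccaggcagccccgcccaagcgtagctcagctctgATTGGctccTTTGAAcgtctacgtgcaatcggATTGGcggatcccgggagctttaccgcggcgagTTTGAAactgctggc
Prc1: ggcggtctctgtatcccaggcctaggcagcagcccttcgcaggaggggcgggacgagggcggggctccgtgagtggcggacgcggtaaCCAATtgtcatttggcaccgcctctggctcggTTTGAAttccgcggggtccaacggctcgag
The stretches are chr7:135716380-135716529 on the minus strand for Mki67, chr11:99024190-99024339 on the minus strand for Top2a, chr10:69352913-69353062 on the minus strand for Cdk1 and chr7:80294326-80294475 on the plus strand for Prc1. In them, TTTGAA begins 116 and 98 bases before the start of Mki67, 23 bases before that of Top2a, 71 and 15 bases before that of Cdk1 and 30 bases before that of Prc1. Prc1 has another RefSeq start as well, and TTTGAA begins 5 bases before that one. Over the whole windows, TTTGAA was present on either strand for 33 of 46 mitotic genes (71.7%), against 20.2% of all 27025 genes with a promoter. It lay before the start in 16 of the 46. CCAAT was likewise present for 33 of 46 (71.7%, all genes 41.1%), and 21 of 46 held at least 2 of them (45.7%, all genes 13.3%). TTCGAA, a variant of the homology region, was present for 4 (8.7%, all genes 1.8%). CACGTG, the E-box that MYC can bind, was present for Anln, Espl1 and Ttk, which is 3 of 46 (6.52%, all genes 8.09%). GCGGGAA, letters of an E2F site, was present for Cenpk and Ncapg, which is 2 of 46 (4.35%, all genes 5.29%). Each motif was searched on both strands on its own, and the matches describe these windows only.

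Total counts ranged from 5663491 to 9352109 per library. Levels are given as CPM, the count of a gene scaled to the TMM-normalised size of its library, and the floor of 3 counts lay between 0.304 and 0.737 CPM. Myc reached 150.8, 364.6, 1574 and 1007 CPM in tumors 1 to 4, the lowest in tumor 1, 12.87 to 14.18 CPM in P7 cerebella and 33.42 to 45.35 CPM in SHH MB. Smarca4 reached 134.8 to 241.8 CPM in the tumors, 219.5 to 279.7 CPM in P7 cerebella and 486.5 to 584.8 CPM in SHH MB. Counts cover the whole gene and do not tell a recombined from an intact allele, and the share of tumor cells in a punch was not measured here. Exons of 30 mitotic genes overlap a gene on the opposite strand in the GENCODE annotation of GRCm39, among them Cdk1 with Ank3, Cdc25b with Spef1 and Prc1 with Rccd1. Whether reads were counted by strand is not given in the sources used here.

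Before any comparison, tumor 1 stood apart from the other tumors. The 55 genes together summed to 637.3 CPM in tumor 1 and to 5586, 5662 and 5853 CPM in tumors 2 to 4. The sums were 3277, 2442 and 2634 CPM in the 3 P7 cerebella and 6369, 6107 and 7392 CPM in the 3 SHH MB. On this scale tumors 2 to 4 lay above every P7 cerebellum and below every SHH MB, and tumor 1 lay below every other library. The TMM factor was 0.622 in tumor 1 and 1.27 in tumor 3. As a share of raw counts, the 55 genes took 0.0396%, 0.451%, 0.72% and 0.517% in tumors 1 to 4. The share was 0.659% to 0.746% in SHH MB, so that tumor 3 lay within their range. Tumor 1 was the lowest tumor in 53 of 55 mitotic genes (96.4%), against 26.8% of all genes tested. The median mitotic gene reached 9.63% of the mean of tumors 2 to 4, with 3.4% for Kif11, the motor that slides spindle poles apart, at the low end. At the high end stood Cdc25b with 107%, Bub3 with 74.8% and Anln with 73.8%. It lay below every P7 cerebellum in 52 of the 55 (46.7% of all genes) and below every SHH MB in 55 (45.1%). By contrast, tumors 2, 3 and 4 lay above every P7 cerebellum in 52, 54 and 53 genes (37.1%, 36.1% and 35.8% of all genes). Among tumors 2 to 4 the highest value of a mitotic gene was at the median 1.26 times and at most 1.68 times the lowest.

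Summed over each list, markers of neurons and oligodendrocytes were highest in tumor 1, and markers of astrocytes were lowest. Of the single neuron markers, Nefl was not highest there. The 6 markers of mature granule neurons summed to 4410 CPM in tumor 1, to 222 to 1600 CPM in tumors 2 to 4, to 389 to 463 CPM in P7 cerebella and to 129 to 180 CPM in SHH MB. Purkinje cell markers summed to 10800 CPM in tumor 1 and to 338 to 2570 CPM in the other tumors. Markers of myelinating oligodendrocytes summed to 3870 CPM in tumor 1, to 103 to 773 CPM in the other tumors, to 912 to 1090 CPM in P7 cerebella and to 110 to 370 CPM in SHH MB. Astrocyte and Bergmann glia markers, by contrast, summed to 375 CPM in tumor 1, to 2390, 485 and 1810 CPM in tumors 2 to 4, to 2050 to 2120 CPM in P7 cerebella and to 1670 to 1960 CPM in SHH MB. The lowest place of tumor 1 rested on Slc1a2. Aqp4, Gfap, Slc1a3, Aldh1l1 and Gdf10 were each lower in tumor 3 than in tumor 1. Summed markers of microglia (128 CPM) and endothelium (332 CPM) were highest in tumor 1 as well. In tumors 2 to 4 these sums reached 33.9 to 93.4 CPM for microglia and 88.7 to 158 CPM for endothelium. Single markers did not all follow: Aif1 was lowest of the tumors in tumor 1, and Tmem119, Cx3cr1 and Kdr were not highest there. The 6 markers of GCPs, which bear on the labelled origin, summed to 1000 CPM in tumor 1 and to 829, 427 and 452 CPM in tumors 2 to 4. Zic1 made up most of this sum in tumor 1 (891.8 CPM, with 269.8 to 604.1 CPM in the other tumors). Atoh1, the gene also called Math1, was under the floor in tumor 1 (2 counts) and reached 24.45, 31.23 and 3.387 CPM in tumors 2 to 4, with 17.21 to 29.48 CPM in P7 cerebella and 97.04 to 138 CPM in SHH MB. Gli1 and Mycn were also lowest in tumor 1 (8.353 and 1.228 CPM), and Mycn and Barhl1 lay below all other groups in every tumor. Among the tumors, however, Barhl1 was highest in tumor 1. Pax6 was lower in tumor 1 than in tumor 2 and higher than in tumors 3 and 4. Mitochondrial and rRNA-like genes took 7.92% of the counts in tumor 1, 4.24% to 4.44% in tumors 2 to 4 and 1.78% to 2.36% in the other libraries. The part of these cells and of RNA quality in the low mitotic levels was not tested. In bulk tissue, fewer dividing cells and less mitotic RNA per cell cannot be told apart. Counts of calls for the tumors, and the single-gene tests quoted for their comparison with P7 cerebella, are therefore given with and without tumor 1. The levels of these same genes set tumor 1 apart. P-values without it are conditional on that choice and can be too small.

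**Figure D1:**
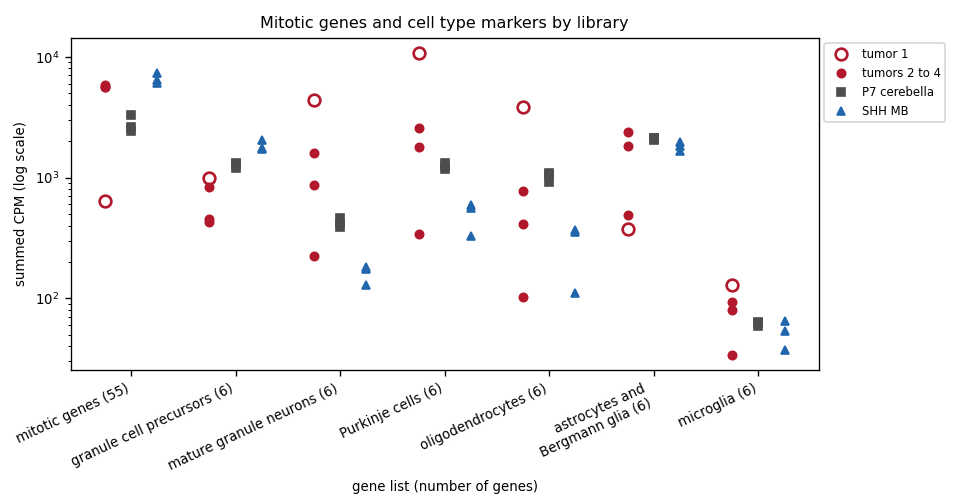
Summed CPM of the mitotic genes and of 6 marker lists in each library, on a log axis, with tumor 1 as an open circle. Tumor 1 has the lowest mitotic sum (637.3 CPM) and the highest sum of mature granule neuron markers (4410 CPM).

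Per kilobase of exons, Mki67 had the highest level of the 55 genes and Top2a the next in all groups (tumors without tumor 1). The divisor was the union of all GENCODE exons of a gene, from 1948 bases for Cdc20 to 16565 for Cenpf. The annotation used in counting is not given, so ranks between genes and shares of roles hold for this divisor only. Mki67, which coats mitotic chromosomes, reached 130.0 ± 18.18 CPM per kb in SHH MB, 44.63 ± 6.02 in P7 cerebella (both SD, n = 3) and 78.01 ± 11.39 in tumors 2 to 4 (SD, n = 3). Top2a, the topoisomerase that untangles sister DNA, reached 53.93 ± 5.521 CPM per kb in SHH MB, 22.22 ± 4.974 in P7 cerebella and 53.55 ± 2.673 in tumors 2 to 4 (each SD, n = 3). Pttg1, which encodes securin, was the lowest of the 55 in SHH MB with 2.066 CPM per kb, and Cenpk was the lowest in tumors 2 to 4 with 1.755 CPM per kb. Genes of chromosome structure took 35.9% to 36.6% of the summed level per kb in SHH MB, 30.3% to 31.1% in P7 cerebella and 26.3% to 32.5% in the tumors. Spindle checkpoint genes took 6.65% to 9.12% in the tumors, 5.41% to 5.75% in P7 cerebella and 4.43% to 5.26% in SHH MB.

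**Figure D2:**
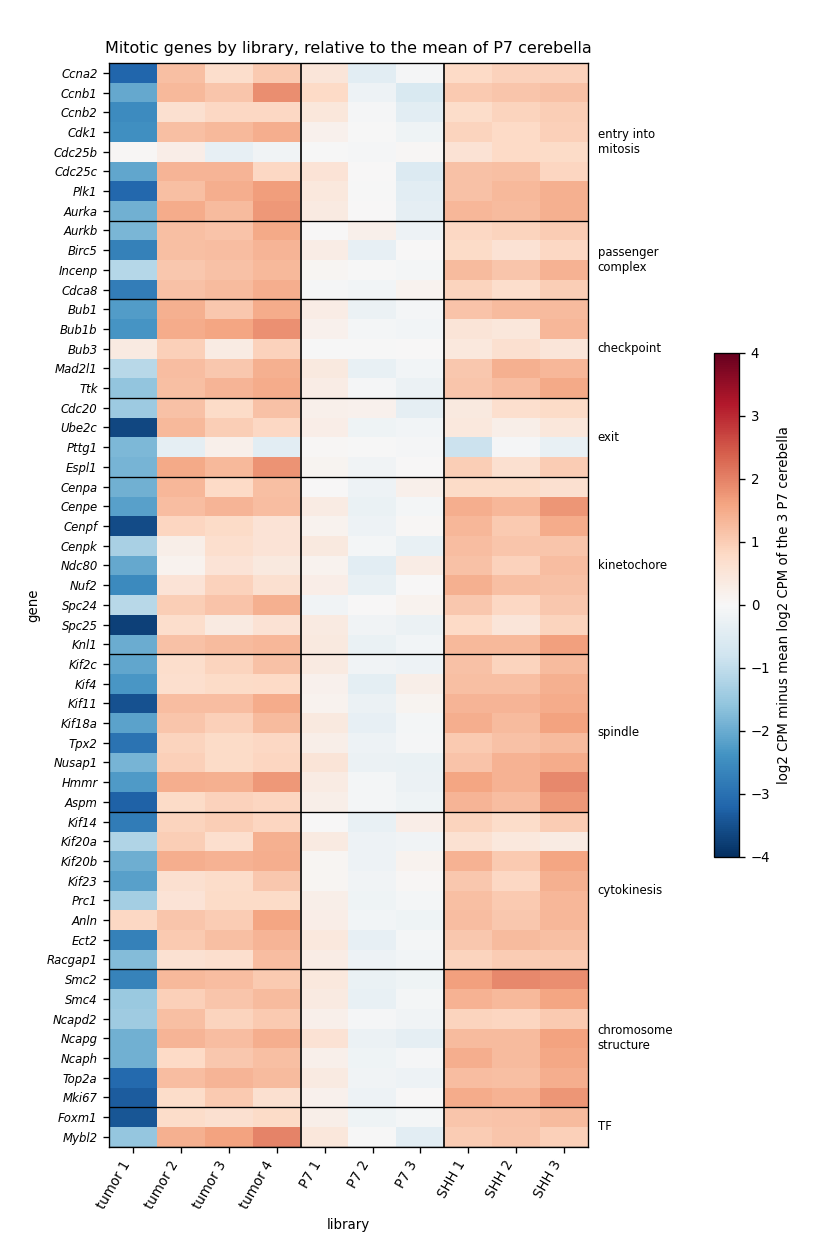
Heat map of log2 CPM minus the mean of the P7 cerebella for the 55 genes (rows, by role) in the 10 libraries (columns), with colours from -4 to 4. Tumor 1 is below every P7 cerebellum in 52 genes, whereas tumors 2, 3 and 4 are above every P7 cerebellum in 52, 54 and 53 genes.

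The first comparison asks how the tumors differ from the cerebellum in which GCPs divide. With all 4 tumors, 53 of 55 mitotic genes had a positive log2 fold change and the median was 0.756, against -0.0512 over all genes. Only Anln was called higher at an adjusted p of at most 0.05 by edgeR's quasi-likelihood test, and none was called lower, while 3.99% of all genes were called higher and 2.27% lower. DESeq2 and limma on the deposited VST values each called Anln alone as well (all genes 9.29% higher and 4.08% lower by DESeq2, 1.2% and 1.23% on the VST values). With only the 2 groups compared in the fit, 0 were called (all genes 0.206% higher, 0.607% lower). At an unadjusted p under 0.05, Anln, Bub3 and Mybl2 were higher and 0 genes lower (all genes 15.3% and 9.98%). The groups did not overlap in Anln and Bub3, both higher (all genes 10.3%), the only 2 in which tumor 1 lay above every P7 cerebellum. The median SD of log2 CPM of the mitotic genes was 1.64 between the tumors, against 0.274 between P7 cerebella. Between the tumors it was 0.608 for the 14986 tested genes with a mean log2 CPM anywhere from 2.44 to 9.2. That is the whole range of the mitotic genes, without matching of levels.

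Without tumor 1, 43 of 55 genes were called higher and 0 lower than in P7 cerebella, with a median of 1.02 (all genes -0.248, with 9.64% called higher and 6.11% lower). Single libraries show the same split, since the median difference from the P7 mean was -2.07 in tumor 1 and 1.12, 1.03 and 1.24 in tumors 2, 3 and 4. The 3 tumors lay above every P7 cerebellum in 51 of 55 genes, against 17.6% of all genes, and below in 0 (all genes 15.8%). All genes of the passenger complex (4 of 4) and the checkpoint (5 of 5) were called higher, and so were 6 of 8 genes of mitotic entry, 6 of 7 of chromosome structure and 7 of 8 of cytokinesis. In the kinetochore only 4 of 9 genes were called. With only the 2 groups compared in the fit and no tumor 1, 31 genes were called higher (all genes 5.94%) and 0 lower (all genes 3.3%).

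The comparison with SHH MB asks how these tumors differ from a medulloblastoma of the same lineage. With all tumors, 43 of 55 mitotic genes had a negative log2 fold change, the median was -0.396 (all genes 0.00814), and edgeR's adjusted p passed for 0 genes, against 2.43% of all genes called higher and 2.26% lower. At an unadjusted p under 0.05, Cdc25b, Ndc80 and Cenpk were lower and 0 genes higher (all genes 7.09% and 12.7%). DESeq2 called Cdc25b lower (adjusted p = 0.0408; all genes 7.87% higher and 4.09% lower), limma on the VST values called 0 (0.692% and 1.21%), and edgeR with only the 2 groups compared called 0 (0.337% and 1.15%). In 16 genes all tumors lay below all SHH MB (all genes 8.3%), and in 0 they lay above (all genes 7.83%). Tumor 1 alone lay below every SHH MB in all 55 genes. This fixed the 0, and the 16 genes are set by tumors 2 to 4.

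Without tumor 1, Cdc25b, Ndc80 and Mki67 were called lower than in SHH MB and none higher, and the median of the 55 genes was -0.149, close to that of all genes (-0.148, with 5% called higher and 4.75% lower). With only the 2 groups compared and no tumor 1, 0 were called (all genes 4.41% higher, 3.04% lower). The genes went in both directions: tumors 2 to 4 lay above every SHH MB in 11 genes (13.7% of all genes) and below every SHH MB in 16 (11.7% of all genes). Above were 3 of 4 passenger genes (Aurkb, Birc5, Cdca8) and 3 of 4 exit genes (Cdc20, Ube2c, Espl1), with 0 of these roles below. Below were 5 of 8 spindle genes (Kif4, Kif18a, Tpx2, Nusap1, Aspm), 4 of 9 kinetochore genes (Cenpf, Cenpk, Ndc80, Nuf2) and 4 of 7 chromosome genes (Smc2, Smc4, Ncaph, Mki67). Cenpa of the kinetochore and Bub1b of the checkpoint lay above. Entry, cytokinesis and the transcription factors each had 1 gene above and 1 below. No test by role was run.

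SHH MB and P7 cerebella were compared as the reference for a tumor of GCPs. Of the 55 genes, 54 had a positive log2 fold change, with a median of 1.15 (all genes -0.0882). In the fit with all 10 libraries, in which tumor 1 enters the shared spread, edgeR called 0 of them (0.177% of all genes higher, 0.0467% lower), although 23 were higher at an unadjusted p under 0.05 (all genes 5.16%) and 0 lower (all genes 3.64%). DESeq2 called Anln alone (all genes 1.72% higher, 0.669% lower), and limma on the VST values called 0 (0.128% and 0.0173%). In 52 genes every SHH MB lay above every P7 cerebellum (17.8% of all genes), and in Pttg1 every SHH MB lay below (19% of all genes). With only these 2 groups in the fit, 52 genes were called higher (all genes 13.4%) and 0 lower (10.3%), all but Ube2c, Kif20a and Pttg1. Without tumor 1 in the fit of all groups, 42 were called higher (all genes 2.86%) and 0 lower (1.19%). At the larger size of a log2 fold change of at least 2.5 with an adjusted p of at most 0.01, 0 of the 55 genes passed in any of the 3 comparisons. Of all genes, 0.0901% were higher and 0.2% lower in the tumors against P7 cerebella, 0.124% and 0.477% against SHH MB, and 0.01% and 0% in SHH MB against P7 cerebella. The comparisons share libraries and are not independent of each other.

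**Figure D3:**
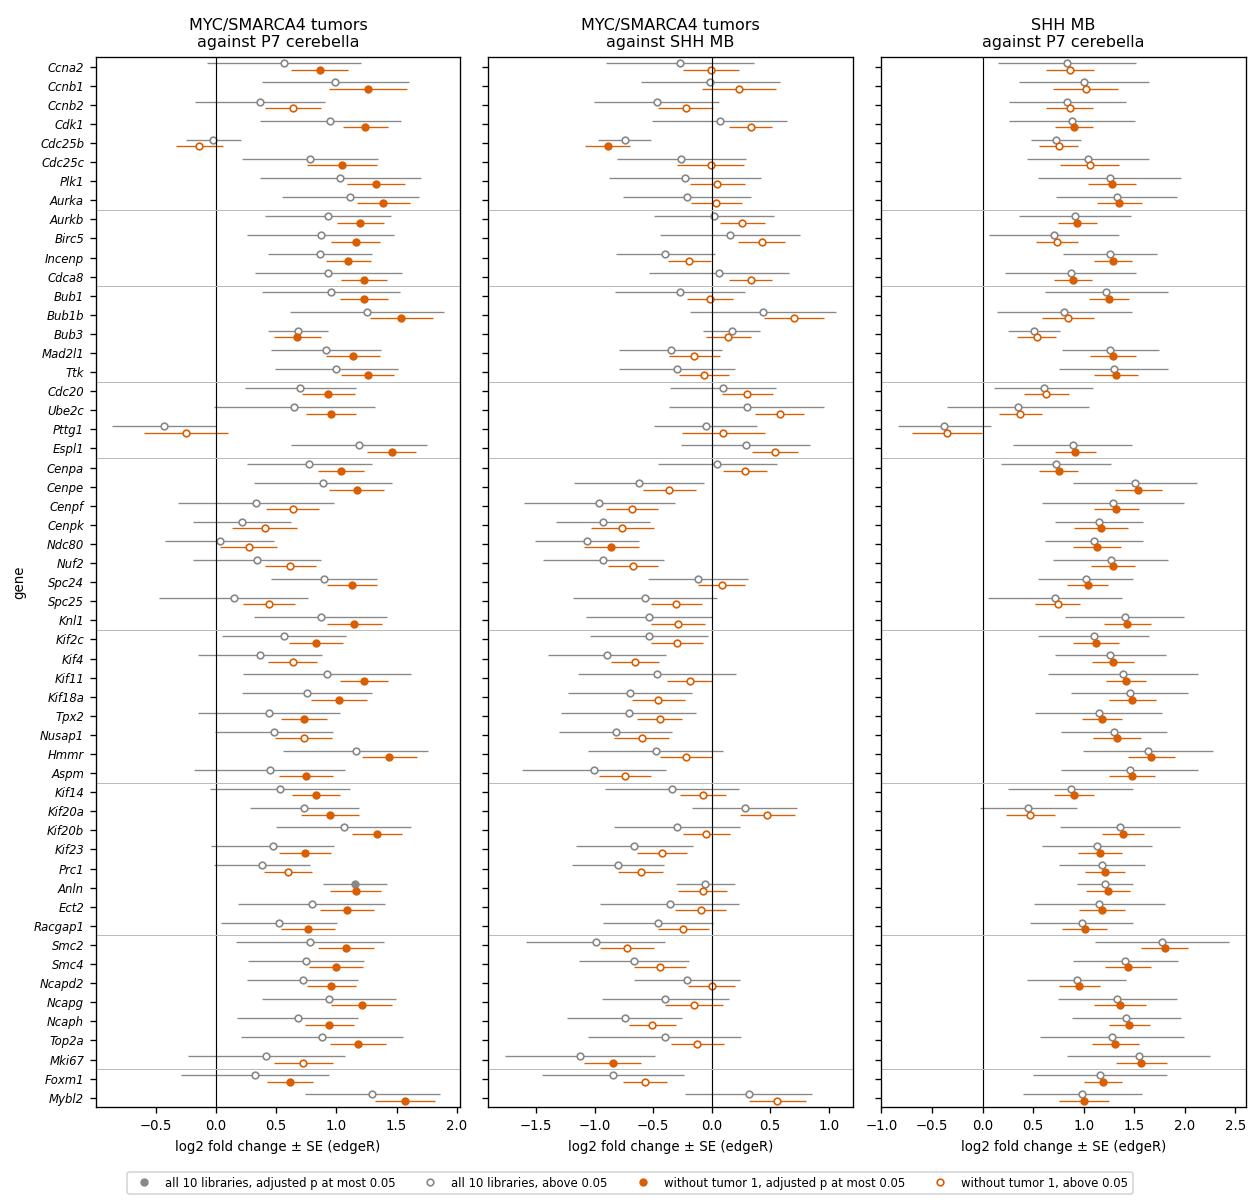
Log2 fold changes with SE of the 55 genes in the 3 comparisons, from all 10 libraries in grey and without tumor 1 in orange. Filled points have an adjusted p of at most 0.05, which is 1 gene (Anln) with all libraries and 43 genes without tumor 1 for tumors against P7 cerebella.

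Among the genes of mitotic entry, Ccnb1 (chromosome 13, 100915153 to 100923116, GRCm39) encodes cyclin B1. Its level was 2.948, 32.48, 28.59 and 48.14 CPM in tumors 1 to 4, 22.59, 11.37 and 8.488 CPM in P7 cerebella and 27, 28.51 and 29.86 CPM in SHH MB. The other tumors lay above the P7 cerebella and tumor 1 below them. Its log2 fold change against P7 cerebella was 0.99 (SE 0.61, adjusted p = 0.314 by edgeR) with all tumors and 1.26 (SE 0.323, adjusted p = 0.0199) without tumor 1. Cdk1, the kinase that cyclin B1 activates, lies on chromosome 10 (69170976 to 69236595). It measured 5.651, 74.6, 78.84 and 88.67 CPM in the tumors, 36.37, 31.83 and 28.15 CPM in P7 cerebella and 59.86, 55.51 and 62.39 CPM in SHH MB. All libraries of tumors 2 to 4 were above the rest, and tumor 1 was below all. Against P7 cerebella the log2 fold change of Cdk1 was 0.95 (SE 0.59, edgeR adjusted p = 0.314), and without tumor 1 it was 1.24 (SE 0.188, adjusted p = 0.00102). Plk1, a kinase of spindle assembly, rose 2.51-fold and Aurka, the kinase of the spindle poles, 2.61-fold against P7 cerebella without tumor 1 (edgeR adjusted p = 0.00302 and 0.00144). With all tumors their log2 fold changes were 1.03 (SE 0.67, edgeR adjusted p = 0.333) and 1.12 (SE 0.567, adjusted p = 0.234).

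Cdc25b, a phosphatase that activates CDK1, behaved unlike the other entry genes (chromosome 2, 131027866 to 131044913). It measured 37.1, 43.19, 28.59 and 32.42 CPM in the tumors, 35.46, 34.86 and 37.21 CPM in P7 cerebella and 53.22, 62.99 and 61.27 CPM in SHH MB. Tumor 1 was within the range of the other tumors here, and every SHH MB lay above every other library. Against SHH MB its log2 fold change was -0.745 (SE 0.23, edgeR adjusted p = 0.0855) with all tumors and -0.89 (SE 0.196, adjusted p = 0.012) without tumor 1. Against P7 cerebella it was -0.02 (SE 0.23, edgeR adjusted p = 0.955), and -0.14 without tumor 1 (adjusted p = 0.646). SHH MB exceeded P7 cerebella by 0.723 on the log2 scale (SE 0.25, edgeR adjusted p = 0.398), and with only these 2 groups by 0.747 (SE 0.132, adjusted p = 8.62e-05).

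Aurkb (chromosome 11, 68936467 to 68944764) is the kinase of the chromosomal passenger complex, which corrects wrong attachments. It measured 6.388, 54.61, 51.5 and 67.02 CPM in the tumors, 23.81, 26.85 and 20.09 CPM in P7 cerebella and 42.12, 43.24 and 47.89 CPM in SHH MB. As with Cdk1, tumors 2 to 4 were the highest libraries and tumor 1 the lowest. The log2 fold change against P7 cerebella was 0.93 (SE 0.53, edgeR adjusted p = 0.274), and 1.2 without tumor 1 (SE 0.197, adjusted p = 0.00165). Birc5 (survivin) and Cdca8 (borealin), which place the kinase at centromeres, followed the same order, with 59.25 to 66.53 and 45.51 to 55.52 CPM in tumors 2 to 4 and at most 45.92 and 40.14 CPM elsewhere.

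In the spindle checkpoint, Bub1b encodes BubR1, which restrains the anaphase-promoting complex. Its level was 8.353, 121.4, 130.3 and 155.9 CPM in the tumors, 49.54, 41.35 and 40.32 CPM in P7 cerebella and 61.86, 59.48 and 108.7 CPM in SHH MB. All tumors but tumor 1 exceeded the other libraries, and SHH MB 3 stood above the other SHH MB. Without tumor 1 Bub1b rose 2.92-fold against P7 cerebella (log2 1.54, SE 0.262, edgeR adjusted p = 0.00195), and with all tumors the log2 fold change was 1.25 (SE 0.641, adjusted p = 0.237). Against SHH MB it was 0.44 (edgeR adjusted p = 0.738), and 0.70 without tumor 1 (adjusted p = 0.118). Bub3, which carries BUB1 and BubR1 to kinetochores, measured 48.89, 74.24, 48.58 and 73.18 CPM in the tumors and 37.79, 38 and 38.91 CPM in P7 cerebella. All tumors, tumor 1 included, were above the P7 cerebella, with a log2 fold change of 0.68 that missed the threshold with all tumors (SE 0.247, edgeR adjusted p = 0.113). Without tumor 1 it was 0.68 as well and was called (SE 0.193, edgeR adjusted p = 0.0326).

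Genes of mitotic exit differed among themselves. Espl1, which encodes separase, measured 11.79, 123, 105.9 and 151.8 CPM in the tumors, 46.2, 39.51 and 44 CPM in P7 cerebella and 85.16, 67.66 and 87.89 CPM in SHH MB, and rose 2.75-fold against P7 cerebella without tumor 1 (SE 0.202 on the log2 scale, edgeR adjusted p = 0.000574). With all tumors its log2 fold change was 1.19 (SE 0.566, edgeR adjusted p = 0.21). Ube2c, the ubiquitin-conjugating enzyme of the anaphase-promoting complex, measured 2.211, 76.92, 62.04 and 54.68 CPM in the tumors, 37.59, 27.61 and 28.58 CPM in P7 cerebella and 41.19, 36.34 and 42.11 CPM in SHH MB. It is among the few genes whose SHH MB and P7 values overlapped. Pttg1, whose product inhibits separase, measured 1.72, 5.176, 7.634 and 4.96 CPM in the tumors, 6.889, 6.604 and 6.508 CPM in P7 cerebella and 3.548, 6.427 and 5.352 CPM in SHH MB. It was the only one of the 55 with a negative log2 fold change in SHH MB against P7 cerebella, and its log2 fold change in the tumors against P7 cerebella was -0.43 (edgeR adjusted p = 0.522), and -0.25 without tumor 1 (adjusted p = 0.644).

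Kinetochore genes had the smallest median log2 fold change of all roles against P7 cerebella (0.341, and 0.638 without tumor 1). Ndc80 (chromosome 17, 71803093 to 71833860) encodes the subunit that grips microtubules. It measured 3.194, 15.53, 20.54 and 18.63 CPM in the tumors, 15.3, 10.28 and 17.4 CPM in P7 cerebella and 31.78, 26.99 and 33.24 CPM in SHH MB. Every SHH MB was above every other library, and the tumors overlapped with P7 cerebella. Against SHH MB the log2 fold change was -1.07 (SE 0.45, edgeR adjusted p = 0.206), and -0.857 without tumor 1 (SE 0.236, adjusted p = 0.0381). Cenpk (chromosome 13, 104365051 to 104388900), a gene of the inner kinetochore, measured 2.457, 7.674, 10.55 and 9.677 CPM in the tumors, 8.511, 6.062 and 5.235 CPM in P7 cerebella and 15.74, 14.14 and 14.23 CPM in SHH MB. Its values were also highest in the SHH MB, with a log2 fold change of the tumors of -0.93 (SE 0.40, edgeR adjusted p = 0.219), and -0.76 without tumor 1 (SE 0.267, adjusted p = 0.102). Cenpa, the histone of centromeres, differed from these, with 66.21, 45.67 and 60.85 CPM in tumors 2 to 4 and 41.27 to 44.76 CPM in SHH MB.

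Spindle genes were called higher without tumor 1 in 6 of 8 cases against P7 cerebella (all genes 9.64%). Hmmr, a spindle assembly factor, measured 3.194, 45.87, 44.69 and 55.52 CPM in the tumors, 20.77, 15.48 and 14.01 CPM in P7 cerebella and 49.52, 43.82 and 63.52 CPM in SHH MB, a rise of 2.72-fold against P7 cerebella without tumor 1 (SE 0.229 on the log2 scale, edgeR adjusted p = 0.00133). With all tumors its log2 fold change was 1.16 (SE 0.605, edgeR adjusted p = 0.244). Aspm, which focuses spindle poles, measured 10.07, 164.7, 185.9 and 176.6 CPM in the tumors, 116, 92.45 and 87.29 CPM in P7 cerebella and 250.4, 232.3 and 328.5 CPM in SHH MB. Tumors 2 to 4 lay between both other groups, as they did for Tpx2, an activator of Aurora A.

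Of the cytokinesis genes, Anln (chromosome 9, 22242402 to 22300501) encodes anillin, a scaffold of the contractile ring that is also known from myelinating oligodendrocytes. It measured 61.42, 74.96, 70.23 and 104.4 CPM in the tumors, 42.05, 32.26 and 30.42 CPM in P7 cerebella and 81.3, 73.74 and 87.46 CPM in SHH MB. All tumors lay above the P7 cerebella, and tumor 1 was at 73.8% of the other tumors. It rose 2.227-fold against P7 cerebella (log2 1.16, SE 0.262, edgeR adjusted p = 0.0247), and without tumor 1 the log2 value was 1.16 as well (SE 0.215, adjusted p = 0.0034). Over 20 alternatives the adjusted p ranged from 0.000516 to 0.184. The call was lost in 9 of them, which include leaving out tumor 4, any P7 cerebellum or any SHH MB. Oligodendrocyte markers, given above, were highest in tumor 1 (3870 CPM), and their part in the Anln level was not tested. In SHH MB Anln had a log2 fold change of 1.21 against P7 cerebella (SE 0.28, edgeR adjusted p = 0.13). With only these 2 groups it was 1.23 (SE 0.139, edgeR adjusted p = 1.03e-07), and by DESeq2 it was 1.26 (adjusted p = 0.00245).

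Prc1 (chromosome 7, 79944168 to 79966011), whose product bundles the microtubules of the central spindle, measured 18.43, 69.78, 80.37 and 79.84 CPM in the tumors, 55.93, 42.33 and 44.71 CPM in P7 cerebella and 108.5, 97.81 and 118.2 CPM in SHH MB. Between both other groups lay tumors 2 to 4. Its log2 fold change in SHH MB against P7 cerebella was 1.18 (SE 0.43, edgeR adjusted p = 0.435), and 1.2 with only these 2 groups (SE 0.131, adjusted p = 5.75e-08). Against P7 cerebella the tumors differed by 0.39 (SE 0.40, edgeR adjusted p = 0.537), and by 0.60 without tumor 1 (adjusted p = 0.0582). Kif20a, a kinesin of the central spindle, measured 23.2, 18.74 and 31.57 CPM in tumors 2 to 4, above all SHH MB (14.79 to 18.05 CPM).

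Mki67 (chromosome 7, 135291513 to 135318299) measured 45.21, 764.9, 931.9 and 706.6 CPM in the tumors, 518.3, 394.8 and 461.9 CPM in P7 cerebella and 1280, 1182 and 1543 CPM in SHH MB. Tumors 2 to 4 lay between the groups without overlap, and tumor 1 lay below all. Against SHH MB the log2 fold change was -1.12 (SE 0.64, edgeR adjusted p = 0.36), and without tumor 1 it was -0.846 (SE 0.245, adjusted p = 0.0477). Against P7 cerebella it was 0.42 (SE 0.65, edgeR adjusted p = 0.686), and without tumor 1 it was 0.72 (adjusted p = 0.065). Top2a (chromosome 11, 98883769 to 98915062) measured 23.09, 469.7, 515.7 and 478.8 CPM in the tumors, 254.7, 179.8 and 173 CPM in P7 cerebella and 465.1, 460 and 549.6 CPM in SHH MB. Unlike Mki67, Top2a in tumors 2 to 4 lay within the range of SHH MB. Its log2 fold change against P7 cerebella was 0.88 (SE 0.67, edgeR adjusted p = 0.408), and 1.18 without tumor 1 (SE 0.232, adjusted p = 0.00466). Smc2, a core subunit of condensin, had the largest rise of the 55 genes in SHH MB against P7 cerebella with only these 2 groups (3.47-fold, SE 0.146 on the log2 scale, edgeR adjusted p = 3.36e-10).

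The transcription factors of mitotic genes differed in their order. Foxm1 (chromosome 6, 128339518 to 128353147) measured 5.159, 96.55, 89.39 and 98.71 CPM in the tumors, 68.29, 51.1 and 55.03 CPM in P7 cerebella and 125, 126.2 and 138.9 CPM in SHH MB. Mybl2 measured 5.159, 42.12, 48.03 and 63.39 CPM in the tumors, 21.38, 15.48 and 11.6 CPM in P7 cerebella and 31.63, 33.77 and 30.7 CPM in SHH MB. Tumors 2 to 4 were thus below all SHH MB in Foxm1 and above all SHH MB in Mybl2. Without tumor 1, Foxm1 rose 1.53-fold (SE 0.189 on the log2 scale, edgeR adjusted p = 0.044) and Mybl2 2.96-fold (SE 0.247, adjusted p = 0.0013) against P7 cerebella. With all tumors the log2 fold changes were 0.32 (SE 0.61, edgeR adjusted p = 0.747) and 1.30 (SE 0.56, adjusted p = 0.173).

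Genes of S phase, which copy the DNA, were set beside the mitotic genes as another sign of cycling cells. The 34 S phase genes summed to 510.3, 2125, 2213 and 2794 CPM in the tumors, 1085, 845.3 and 926.8 CPM in P7 cerebella and 2012, 2056 and 2106 CPM in SHH MB. The mitotic sum divided by the S phase sum was 1.25, 2.63, 2.56 and 2.09 in the tumors, 2.84 to 3.02 in P7 cerebella and 2.97 to 3.51 in SHH MB. All tumors lay below all other libraries in this ratio. As a difference of mean log2 CPM, which weights all genes alike, the values ran from -0.5017 to 0.4907 in the tumors, from 0.4475 to 0.5798 in P7 cerebella and from 0.5798 to 0.7081 in SHH MB. On this scale the tumors overlapped with P7 cerebella and lay below all SHH MB. In tumor 1 the median S phase gene reached 22.2% of the mean of the other tumors. Pola1, a subunit of DNA polymerase alpha (log2 1.71, SE 0.381, edgeR adjusted p = 0.0239), and Fen1, a nuclease of lagging-strand synthesis (log2 1.14, SE 0.286, adjusted p = 0.0368), rose against P7 cerebella with all tumors, which is 2 of 34 genes (all genes 3.99%). Without tumor 1, 27 of 34 were called higher (all genes 9.64%), Pola1 (log2 1.88) and Fen1 (log2 1.19) among them.

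**Figure D4:**
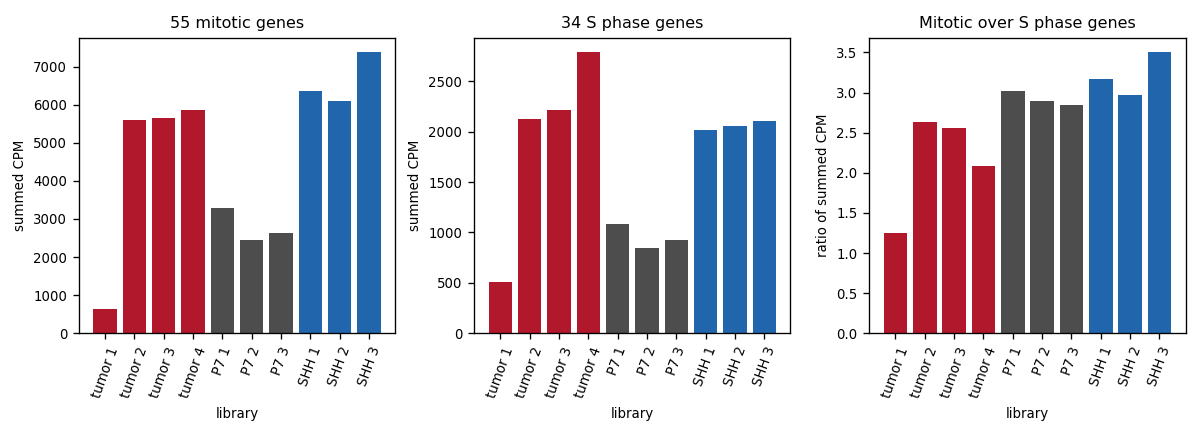
Bars from 0 of the summed CPM of the 55 mitotic and 34 S phase genes and of their ratio in each library. The ratio is 1.25 to 2.63 in the tumors and at least 2.84 in all other libraries.

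A further 109 genes of mitosis extend the picture beyond the 55. With all tumors, Haus6 of the augmin complex (log2 1.34, SE 0.286, edgeR adjusted p = 0.0205), Cdc25a (1.28, SE 0.321, adjusted p = 0.0362) and Wee1 (1.24, SE 0.304, adjusted p = 0.0334) rose against P7 cerebella, which is 3 of 109 (all genes 3.99%). Cdc25a activates and Wee1 inhibits cyclin-dependent kinases. Stmn1, a microtubule destabiliser that is also abundant in young neurons, fell by 1.20 on the log2 scale (SE 0.28, edgeR adjusted p = 0.0274). Without tumor 1, 53 of 109 were called higher (all genes 9.64%), these 3 among them, and Stmn1 alone lower (all genes 6.11%). Against SHH MB edgeR called 0 of 109 in either direction with all tumors, with 0 higher and 7 lower at an unadjusted p under 0.05 (all genes 12.7% and 7.09%), while DESeq2 called 1 lower (all genes 4.09%).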

How the data were processed

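Ribosomal RNA had been depleted from RNA of fixed tissue before sequencing. Per the submitters' processing notes, the authors used FastQC 0.73, Trimmomatic 0.38.1, STAR 2.7.8a, featureCounts 2.0.1 and DESeq2 2.11.40.7, with genome build GRCm39. The authors deposited whole counts per gene without normalization, and a table of log2 values (VST of DESeq2) made from them. The annotation and strand setting of the counting are not given in the sources used here.

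EdgeR 4.0.16 (quasi-likelihood test, R 4.3.3) was run on the counts, with all 10 libraries in the same fit, a mean per group, TMM factors and filterByExpr. P-values of 29952 genes were adjusted by the Benjamini-Hochberg method, and a gene was called at an adjusted p of at most 0.05. Log2 CPM used a prior count of 2. Alternatives were DESeq2 1.42.0, limma 3.58.1 on the deposited log2 values, other factors and filters, a replicate block, fits of the compared groups only, and leaving out each library. The fit of the compared groups without tumor 1 was added after seeing the data. The method was tested on simulated data.

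The members and lists were chosen with earlier results of these data known. Values in every library were to be given for Mki67, Top2a, Ccnb1, Cdk1, Aurkb, Foxm1 and, in each comparison, for the called genes at either end or the 3 with the lowest adjusted p if none passed. Other members with values were chosen after their values were seen. Positions are from GENCODE (mouse release 39) on GRCm39, promoters from RefSeq on GRCm38.p6. No coordinates were converted between builds. The floor of 3 counts covers counting error only, whereas SDs and SEs include the spread between libraries.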

Additional observations from a re-analysis of the deposited data

Results flagged for a closer look

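In 47 of the 55 mitotic genes, tumor 1 was the lowest of the 4 tumors by a gap that, divided by the range of the group in log2 CPM, passed Dixon's 95% critical value for 4 samples. That is 85.5% of them, and the same held for tumor 1 in 2.57% of all genes tested. Chance passes this value in about 1 of 20 groups, and the 47 genes share the same library. Among genes of mitotic entry, the ratio was 0.883 for Ccna2, 0.946 for Ccnb2, 0.936 for Cdk1, 0.847 for Cdc25c, 0.903 for Plk1 and 0.87 for Aurka. Among genes of the passenger complex, the ratio was 0.887 for Aurkb, 0.959 for Birc5, 0.915 for Incenp and 0.933 for Cdca8. Among genes of the spindle checkpoint, the ratio was 0.893 for Bub1, 0.914 for Bub1b, 0.87 for Mad2l1 and 0.91 for Ttk. Among genes of mitotic exit, the ratio was 0.848 for Cdc20, 0.901 for Ube2c and 0.858 for Espl1. Among genes of the kinetochore, the ratio was 0.837 for Cenpa, 0.959 for Cenpe, 0.931 for Cenpf, 0.846 for Ndc80, 0.892 for Nuf2, 0.833 for Spc24, 0.926 for Spc25 and 0.949 for Knl1. For spindle genes, the ratio was 0.855 for Kif2c, 0.96 for Kif4, 0.947 for Kif11, 0.91 for Kif18a, 0.969 for Tpx2, 0.929 for Nusap1, 0.922 for Hmmr and 0.958 for Aspm. For cytokinesis genes, the ratio was 0.969 for Kif14, 0.984 for Kif20b, 0.867 for Kif23, 0.904 for Prc1 and 0.928 for Ect2. For chromosome structure, the ratio was 0.934 for Smc2, 0.886 for Smc4, 0.885 for Ncapd2, 0.94 for Ncapg, 0.871 for Ncaph, 0.97 for Top2a and 0.908 for Mki67. For the transcription factors, the ratio was 0.966 for Foxm1 and 0.835 for Mybl2. Ccnb1, Cdc25b, Bub3, Pttg1, Cenpk, Kif20a, Anln and Racgap1 did not pass it.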

How the results depend on the processing

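For tumors against P7 cerebella, 1 mitotic gene was called higher with all libraries, against 0 with only the 2 groups compared, 31 with those groups and no tumor 1, and 0 to 43 when a library was left out. The 43 calls came without tumor 1, where 15.7% of all genes were called in either direction. Without tumor 3, 1 mitotic gene was called, against 34.6% of all genes. Leaving out another library gave 0.61% to 3.36% of all genes. The share was 13.4% by DESeq2, 2.43% on the VST values and 3.32% without the filter. It was 0.813% with only the 2 groups and 9.24% with those groups and no tumor 1. Of the 109 further genes, 3 were called higher, against 15 by DESeq2, 1 on the VST values, 0 with only the 2 groups, 29 with those groups and no tumor 1, and 0 to 53 without a library. The 1 called lower became 0 on the VST values, without the filter and with only the 2 groups, and 0 to 1 without a library. Against SHH MB, 0 mitotic genes called lower became 1 by DESeq2 and with at least 10 counts in every library, and 0 to 3 without a library (3 without tumor 1, 1 without tumor 3). Of all genes, in either direction, 9.75% were called without tumor 1, 23.4% without tumor 3 and 0.955% to 4.21% without another library. The share was 12% by DESeq2, 10.9% with at least 10 counts and 7.45% with only the 2 groups and no tumor 1. Further genes called higher became 0 to 2 without a library and 1 with only the 2 groups and no tumor 1. Those called lower became 1 by DESeq2, 1 with at least 10 counts, 2 with only the 2 groups and no tumor 1, and 0 to 4 without a library. For SHH MB against P7 cerebella, 0 mitotic genes called higher became 1 by DESeq2, 52 with only the 2 groups, and 0 to 42 without a library. Further genes called higher became 7 by DESeq2, 83 with only the 2 groups (with 1 lower), and 0 to 38 without a library. Of all genes, DESeq2 called 1.72% higher here, and the fit of only the 2 groups called 13.4% higher and 10.3% lower. Without a library, 0% to 4.05% of all genes were called in either direction. No value changed direction past the threshold, and the cause of these changes was not tested. Leaving out tumor 1 moved the median of all genes against P7 cerebella from -0.0512 to -0.248.

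With the replicate number as a block, 0 mitotic genes and 0 further genes in either direction were called against P7 cerebella (all genes 1.24%). The numbers did not pair the libraries: correlations of same-numbered libraries ranged from -0.274 to 0.162, and 3 of 10 libraries correlated best with their own number.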
